A study of Mus musculus with 4 samples.

Results

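ER chaperones and genes of the unfolded protein response were compared at postnatal day 7 between nerves of control mice and of mice labelled Zeb2 cKO. The set has 32 genes, chosen by symbol and all found in the tables, of 22096 gene symbols in all. It was divided by role into 14 chaperones and folding enzymes, 7 genes of ER-associated degradation (ERAD), 4 sensors and their transcription factor Xbp1, counted together, and 7 genes of the Atf4/Ddit3 branch. Both groups were sciatic nerves of mice on a mixed strain background. The control group carries the genotype label Control, and the other group is a conditional knockout of Zeb2, a zinc finger transcription factor that Schwann cells need to form myelin. The labels name neither the Cre driver nor the deleted exons, and the control alleles are not given either. Each sample was RNA pooled from several nerves. Per the labels a group has 2 samples, of which 1 library each was analysed here, with an estimated 29614576 reads (control) and 20179390 reads (knockout). No value below has a replicate, so no test between the groups was possible, and differences are described by size. Counting intervals (95%) were computed from estimated reads and leave out the spread between pools of animals.

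The endoplasmic reticulum folds membrane and secreted proteins, and its lumenal chaperones bind clients until they are folded. When unfolded protein builds up, the sensors Ern1 (IRE1), Eif2ak3 (PERK) and Atf6 are activated. Atf6 and the spliced form of Xbp1 switch on chaperone and ERAD genes, while Eif2ak3 phosphorylates eIF2 alpha, slows translation and favours synthesis of Atf4, which acts on amino acid genes and on Ddit3 (CHOP). Myelinating Schwann cells send large amounts of membrane protein, Pmp22 among it, through the ER, and mutant forms of myelin proteins can engage this response. The comparison therefore sets chaperones and ERAD against the Atf4/Ddit3 branch in nerves that do, and nerves that largely do not, express genes of bulk myelin.

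The promoters of many of these genes carry a motif, the ER stress response element (ERSE), at which Atf6 and Xbp1 act together with the factor NF-Y. Of the 32 members, 28 had an entry in a RefSeq promoter table of build GRCm38.p6 (250 bases before to 50 bases after the gene start), 1 of them, Ero1l, through its current symbol. Hyou1, Manf, Derl1 and Atf6 had no entry. The exact ERSE, CCAAT and CCACG separated by 9 bases of any kind, on either strand, stood in 9 of the 28, and in 39 of all 32851 promoters of the table (0.119%). It was in 7 of the 12 folding genes with an entry, in 2 of 6 ERAD genes, in 0 of 3 sensor genes and in 0 of 7 genes of the Atf4/Ddit3 branch. The search fixed both ends of the element, so only the 9 bases between them and the flanking bases could differ among members. The stretches below show each match. They run 5′ to 3′ on the gene's strand, with positions on GRCm38.p6, and capitals mark the ERSE, which reads CGTGG to ATTGG where it lies on the opposite strand.
Hspa5 (chr2:34772010-34772058, plus strand): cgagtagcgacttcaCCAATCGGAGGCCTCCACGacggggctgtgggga
Hsp90b1, nearer match (chr10:86705518-86705566, minus strand): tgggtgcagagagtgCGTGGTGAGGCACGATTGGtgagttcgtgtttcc
Hsp90b1, farther match (chr10:86705623-86705671, minus strand): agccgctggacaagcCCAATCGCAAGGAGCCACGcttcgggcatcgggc
Calr (chr8:84847060-84847108, minus strand): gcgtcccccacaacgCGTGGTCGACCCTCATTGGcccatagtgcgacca
Pdia6 (chr12:17266476-17266524, plus strand): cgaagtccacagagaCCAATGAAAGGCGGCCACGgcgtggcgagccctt
Dnajc3 (chr14:118937812-118937860, plus strand): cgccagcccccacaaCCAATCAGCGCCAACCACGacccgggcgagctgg
Canx (chr11:50325785-50325833, minus strand): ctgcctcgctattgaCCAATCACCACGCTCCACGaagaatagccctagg
Creld2 (chr15:88819505-88819553, plus strand): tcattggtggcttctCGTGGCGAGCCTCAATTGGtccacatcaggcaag
Syvn1 (chr19:6046517-6046565, plus strand): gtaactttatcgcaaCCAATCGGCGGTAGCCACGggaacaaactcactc
Derl3 (chr10:75893227-75893275, plus strand): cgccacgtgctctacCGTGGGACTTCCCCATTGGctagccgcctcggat

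Other response motifs matched fewer members. Herpud1, an ERAD membrane protein, held the related ERSE-II (ATTGG and CCACG separated by 1 base), which was in 12 promoters of the table (0.0365%) and shares its CCACG end with the ERSE. The amino acid response element at which Atf4 binds with C/EBP factors, here called CARE (TGATGNAAN), was in 1299 promoters (3.95%). It stood in 3 of the 7 promoters of the Atf4/Ddit3 branch, those of Asns, Chac1 and Trib3, in that of Herpud1, and in 0 of the 12 folding genes. The match of Trib3 lies after the gene start and is not printed. Capitals mark the motif in these stretches, shown because their genes belong to the Atf4/Ddit3 branch or to both kinds of promoter.
Asns, CARE (chr6:7693210-7693247, minus strand): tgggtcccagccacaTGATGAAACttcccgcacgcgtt
Chac1, CARE on the opposite strand (chr2:119351033-119351071, plus strand): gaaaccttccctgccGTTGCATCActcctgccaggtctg
Herpud1, CARE on the opposite strand (chr8:94386301-94386339, plus strand): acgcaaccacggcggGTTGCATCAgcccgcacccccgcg
Herpud1, ERSE-II (chr8:94386362-94386402, plus strand): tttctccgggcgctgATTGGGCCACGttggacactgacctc
The Xbp1 site known as UPRE (TGACGTGG, 0.676% of promoters) matched 0 members. The cyclic AMP response element CRE (TGACGTCA, 1.79%), which shares its first 6 bases with the UPRE, matched only Ppp1r15a among the 28. A match is a run of letters in this window and not evidence of binding.

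**Figure D1:**
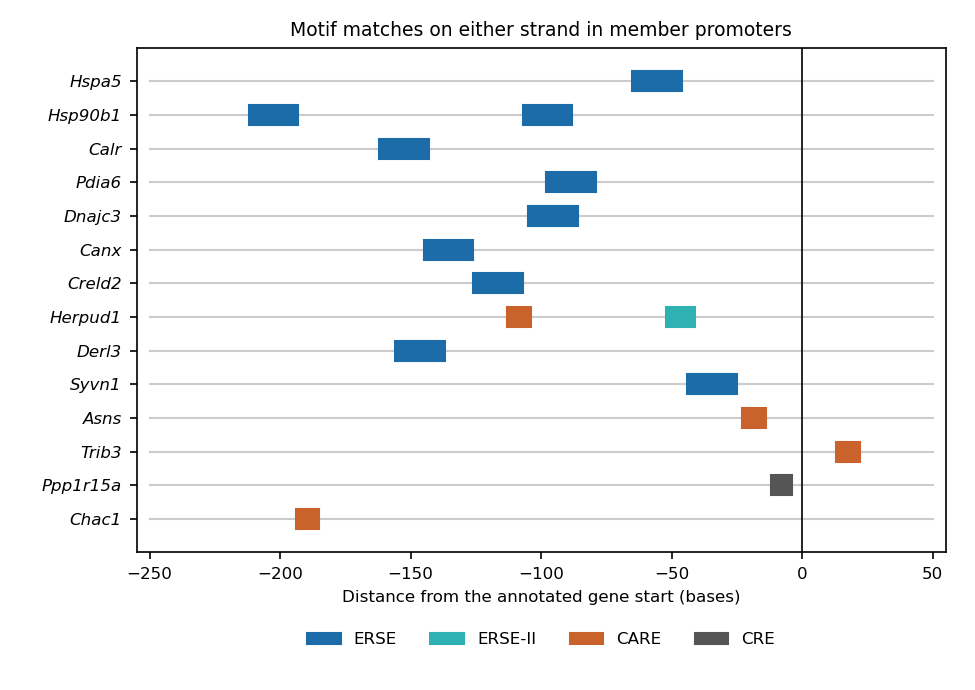
Positions of exact motif matches, on either strand, in the promoter windows of the 14 members that hold one, in bases from the annotated gene start (vertical line). Blue boxes (ERSE) lie in folding and ERAD genes and begin between 44 and 212 bases before the start, and orange boxes (CARE) lie in Asns, Chac1, Trib3 and Herpud1.

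Zeb2 itself was at 34.4 FPKM (sequenced fragments per kilobase of transcript, normalised to all mapped fragments) in control and 19.5 FPKM in knockout nerve, a ratio of 0.568. The tissue carried Schwann cell markers in both libraries, with a median log2 ratio of -1.38 over the 7 listed markers that were measured. They did not move alike: Cdh19 was 2.05-fold higher, from 31.9 to 65.3 FPKM. The others were lower, from 0.764-fold for L1cam to 0.161-fold for Egr2. These markers were named after their values were seen. Bulk myelin transcripts were far lower: Pmp22 was at 12153 and 471 FPKM, and Mbp at 10825 and 488 FPKM. The 13 listed myelin genes with a level in both tables summed to 28582 and 1378 FPKM. In bulk nerve, fewer cells of a type and less RNA per cell cannot be told apart.

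In pairs of values the control library comes first. Ratios are log2((FPKM Zeb2 cKO + 1)/(FPKM control + 1)), which understates the change of low genes, and a gene was called, or counted at 2-fold or 1.5-fold, on this scale. A fold printed beside a pair of levels is the plain ratio of FPKM. Over the 12903 genes with a mean of at least 1 FPKM, the median log2 ratio was 0.18, 8.59% of genes were higher by 2-fold or more and 6.25% lower by as much. Of the 32 members, 29 passed that filter. Among those 29, 2 were called higher and 0 lower, so the share called higher is near that of all genes. Below 2-fold the groups differed in their medians. The median log2 ratio was 0.73 for folding genes, 0.35 for the sensors and Xbp1, 0.30 for ERAD and 0.19 for the Atf4/Ddit3 branch. Folding and ERAD genes together had a median of 0.54, which is 0.34 above that of the Atf4/Ddit3 branch. Over the alternatives this difference was 0.33 to 0.55, the highest with no filter on low values. ERAD alone, at 0.30, stood nearer to the branch than the pooled value does. The branch together with the other stress response genes listed below had a median of 0.26 over 27 measured genes. Relative to the median of all genes, the 4 groups stood 0.55, 0.17, 0.12 and 0.01 higher, in the same order. After rescaling to the median gene ERAD stood 0.10 above it in place of 0.12, and folding genes 0.53 above it.

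**Figure D2:**
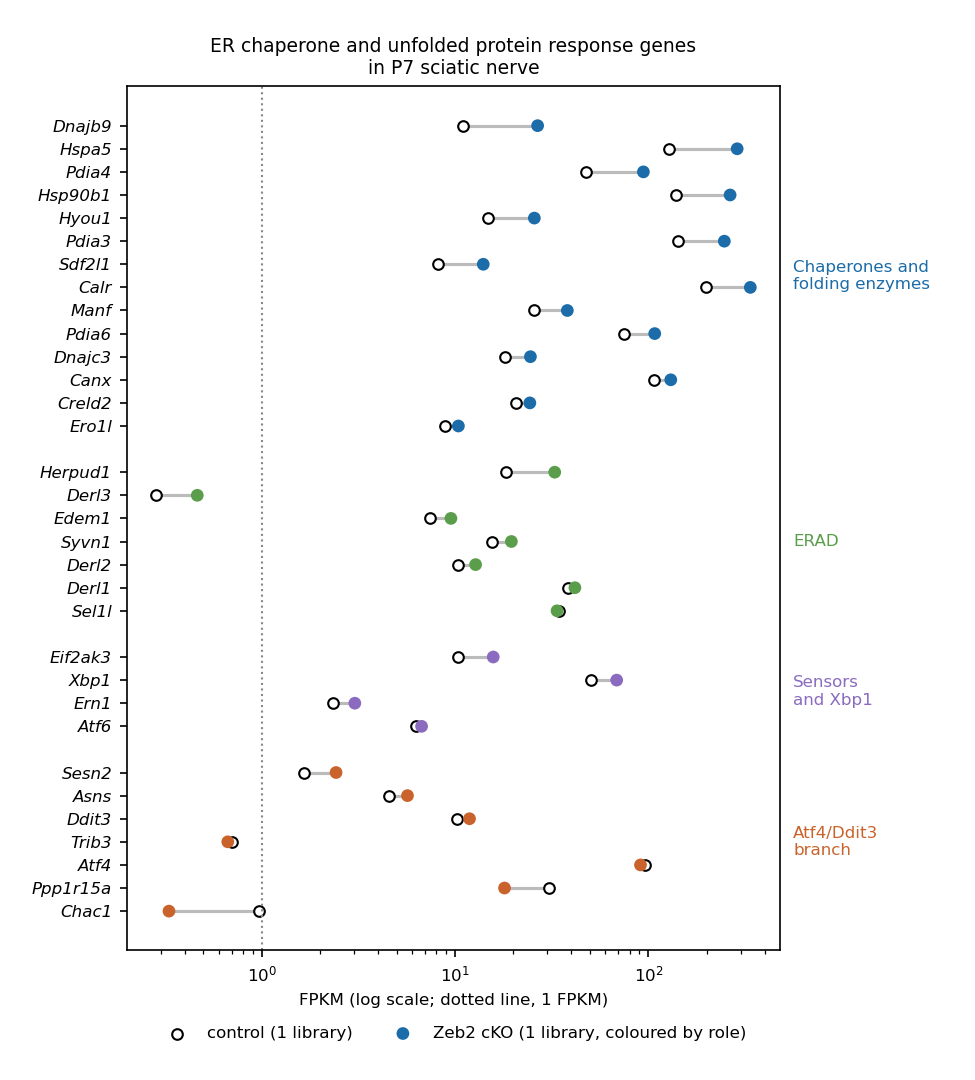
FPKM of each of the 32 members (log axis) in the control library (open circles) and the Zeb2 cKO library (filled circles, coloured by role), ordered within each role by fold. All 14 folding genes lie to the right of their control value, while Ppp1r15a and Chac1 lie to the left of theirs.

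Chaperones and folding enzymes were higher in the Zeb2 cKO library in 14 of 14 genes, where 67.6% of all measured genes were higher by any amount, and each of the 14 lay above the median gene. At a 1.5-fold limit 8 of 14 were higher, against 19.7% of all genes. After rescaling to the median gene 4 of 14 passed this limit, and the share of all genes was not computed there. The summed level of all 14 folding genes went from 947 to 1634 FPKM, a ratio of 1.73. This was 0.228% and 0.399% of the summed FPKM of each table. Fibroblast markers moved with them: 9 of 9 were higher, 5 of them 2-fold or more, and their summed level went from 5629.7 to 9265 FPKM. Fibroblasts secrete much collagen through the ER, and their part in the higher folding genes was not tested.

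Hspa5 encodes BiP, the ER member of the HSP70 family and the chaperone that holds the stress sensors inactive. It was at 128 FPKM in control and 288 FPKM in knockout nerve, 2.24-fold higher (interval 2.19 to 2.30). On the mm9 build of the tables it lies at chr2:34627610-34632049. It was the fourth highest folding gene in the control library and the second highest in the Zeb2 cKO library. The tables list a pair of Hspa5 transcripts, and the main one, at 115 and 268 FPKM, was 2.33-fold higher, the other, at 13.3 and 20.3 FPKM, 1.53-fold. With the Zeb2 cKO values rescaled to the median gene, Hspa5 had a log2 ratio of 0.95, below the 2-fold limit. The core of its promoter is shown because its ERSE is the best known of these elements. These are the 140 bases before the gene start on GRCm38.p6, chr2:34771950-34772089, plus strand, with the exact ERSE match in capitals. Inexact copies of the element were not searched for and are not marked.
Hspa5 promoter: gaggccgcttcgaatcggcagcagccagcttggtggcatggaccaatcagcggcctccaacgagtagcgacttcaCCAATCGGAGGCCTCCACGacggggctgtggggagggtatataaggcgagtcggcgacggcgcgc

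The partners of BiP were higher by unequal amounts. Dnajb9 (ERdj4), a J-domain protein that recruits BiP to the sensor Ern1 and to misfolded clients, was at 10.97 and 26.8 FPKM, 2.44-fold higher (2.22 to 2.68), the highest ratio among the members. It lies at chr12:45306884-45311055 on mm9. Its promoter window held none of the motifs searched, and with a pseudocount of 5 its log2 ratio was 0.99, just under 2-fold. Dnajc3 (p58IPK), a J-domain protein that also restrains Eif2ak3, was at 18.2 and 24.6 FPKM, 1.35-fold higher (1.29 to 1.42). Hyou1 (Grp170), an HSP70-like protein that exchanges the nucleotide of BiP, was at 14.7 and 25.7 FPKM, 1.75-fold higher (1.65 to 1.85). Sdf2l1, which works with a J-domain partner in the BiP cycle, was at 8.16 and 14.0 FPKM, 1.72-fold higher (1.47 to 2.00). Of partners that are not members, the J-domain proteins Dnajb11 and Dnajc10 were 1.48-fold and 1.64-fold higher and the exchange factor Sil1 1.27-fold, while Sec63, the J-domain protein at the translocon, was at 18.5 and 20.0 FPKM, 1.08-fold. These 4 were chosen after their values were seen.

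The glycoprotein chaperones of the calnexin cycle did not move alike. Calr, soluble calreticulin, was at 199.8 and 337 FPKM, 1.69-fold higher (1.65 to 1.73), and had the highest level of the folding genes in both libraries. Pdia3, the disulfide isomerase that works with calreticulin and calnexin, was at 143 and 247 FPKM, 1.73-fold higher (1.69 to 1.77). Canx, membrane-bound calnexin, which is known to assist Pmp22 folding, was at 107 and 131 FPKM, 1.22-fold higher (1.20 to 1.25), close to the median gene. The intervals of Calr and Canx do not meet, so the soluble and membrane-bound forms differed in ratio beyond counting error in these libraries. Of the 3 Canx transcripts listed, the main one, at 101 and 125 FPKM, gave nearly all of the level and was 1.24-fold higher.

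Among the other chaperones and thiol enzymes, Hsp90b1 and Pdia4 stood nearest to 2-fold. Hsp90b1 (Grp94), the ER HSP90 that folds integrins and Toll-like receptors, was at 139 and 265 FPKM, 1.90-fold higher (1.86 to 1.94). Pdia4 (ERp72), a disulfide isomerase, was at 47.7 and 94.3 FPKM, 1.98-fold higher (1.90 to 2.06), with a log2 ratio of 0.97 just under the limit. Pdia4 overlaps Mir704 and Pdia6 overlaps Atp6v1c2 in the tables, and no strand was used. Pdia6, another isomerase of the family, was at 75.3 and 108 FPKM, 1.43-fold higher (1.38 to 1.49). Ero1l, the oxidase that recharges the isomerases, was at 8.86 and 10.4 FPKM, 1.18-fold higher (1.09 to 1.27), the lowest ratio of the folding group. Manf, a secreted ER stress protein, was at 25.6 and 38.1 FPKM, 1.49-fold higher (1.40 to 1.58). Creld2, a disulfide isomerase-like protein induced by ER stress, was at 20.7 and 24.4 FPKM, 1.18-fold (1.08 to 1.30), and its promoter window holds an exact ERSE. Folding genes with an ERSE in the window had a median log2 ratio of 0.51 (7 genes) and those without one a median of 0.79 (5 genes), with overlapping ranges.

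Relatives of these chaperones outside the ER, named after their values were seen, varied in ratio. In the HSP70 family, cytosolic Hspa8 was at 410 and 417 FPKM (1.02-fold, 0.999 to 1.03) and mitochondrial Hspa9 at 49.9 and 50.6 FPKM (1.01-fold, 0.973 to 1.06), beside 2.24-fold for Hspa5. The stress-inducible cytosolic forms were low but higher in the Zeb2 cKO library, Hspa1b at 0.791 and 1.61 FPKM (2.04-fold, 1.51 to 2.76) and Hspa1a at 0.446 and 0.717 FPKM on 44 and 49 estimated reads, under the filter. Hspa1a and Hspa1b are near-identical copies, so the split of reads between them is uncertain. Among the cytosolic HSP110 relatives of Hyou1, Hsph1 was at 7.01 and 14.1 FPKM (2.01-fold), above the 1.75-fold of Hyou1, while Hspa4 was 1.06-fold and Hspa4l 0.795-fold. In the HSP90 family, cytosolic Hsp90ab1 was at 369 and 351 FPKM (0.952-fold), cytosolic Hsp90aa1 at 47.9 and 62.6 FPKM (1.31-fold) and mitochondrial Trap1 at 17.1 and 18.3 FPKM (1.07-fold), beside 1.90-fold for Hsp90b1. Over the heat shock list, mainly cytosolic, 0 of 15 measured genes were 2-fold apart on the scale with a pseudocount, where Hsph1 had a log2 ratio of 0.91 and Hspa1b 0.55, and the list's median was 0.17. Over the 8 mitochondrial chaperones and proteases the median was 0.11, with 0 at 2-fold.

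**Figure D3:**
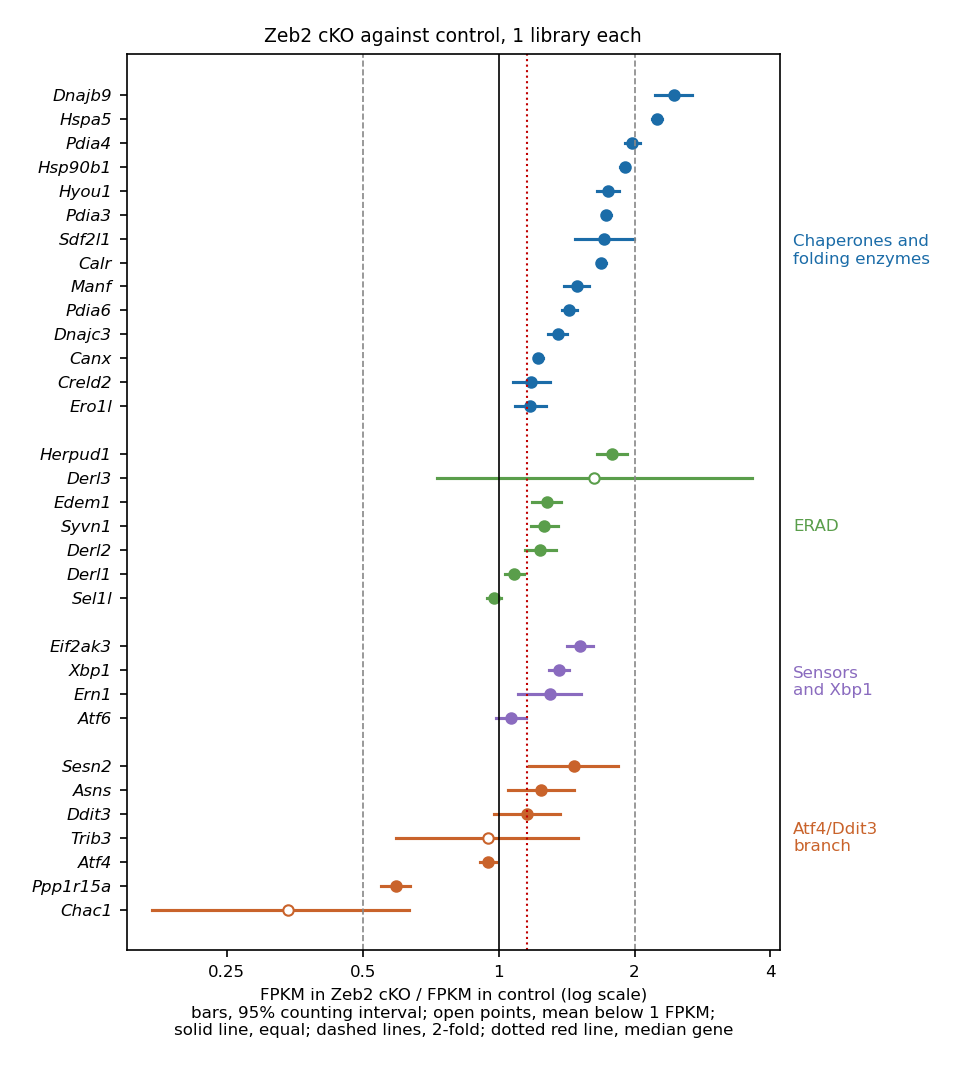
FPKM in the Zeb2 cKO library divided by FPKM in the control library (log axis) for each member, with 95% counting intervals as bars and open points for members below a mean of 1 FPKM. Dnajb9 and Hspa5 lie beyond the dashed 2-fold line, Pdia4 is at 1.98, and the Atf4/Ddit3 branch scatters on both sides of the dotted line of the median gene.

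ERAD genes, which pull misfolded proteins back to the cytosol for the proteasome, lay nearer to the median gene. Of 7 members, 6 were measured and 0 were 2-fold apart. By any amount 5 of the 6 were higher, where 67.6% of all measured genes were. Herpud1, a stress-induced scaffold of the ERAD complex and the holder of the ERSE-II shown above, was at 18.4 and 32.8 FPKM, 1.78-fold higher (1.65 to 1.92), alone of the 6 past 1.5-fold. The core ligase Syvn1 (Hrd1) was at 15.5 and 19.6 FPKM, 1.26-fold (1.18 to 1.35), in a locus that overlaps Mrpl49. Its cofactor Sel1l was at 34.5 and 33.7 FPKM, 0.978-fold (0.943 to 1.01), the only measured ERAD member not higher. Its listed transcripts went opposite ways, one from 25.5 to 19.5 FPKM and the other from 9.02 to 14.2 FPKM. Edem1, which hands mannose-trimmed glycoproteins to ERAD, was at 7.46 and 9.53 FPKM, 1.28-fold. The membrane proteins Derl1 and Derl2 were 1.08-fold (38.5 and 41.7 FPKM) and 1.24-fold (10.3 and 12.8 FPKM). Derl3, known from secretory cells, was at 0.286 and 0.464 FPKM on 14 and 15 estimated reads, and a difference was not detectable at this depth.

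Sensors showed small ratios. Xbp1, the transcription factor made active by Ern1, was at 50.5 and 68.6 FPKM, 1.36-fold higher (1.29 to 1.43). The tables list 1 Xbp1 transcript, so the splicing that activates it was not measured. Eif2ak3 was at 10.4 and 15.8 FPKM, 1.51-fold higher (1.41 to 1.62), the highest ratio of the group. Ern1 was at 2.34 and 3.03 FPKM, 1.30-fold (1.10 to 1.52), and Atf6 at 6.31 and 6.72 FPKM, 1.06-fold (0.988 to 1.15). None of the 4 reached 2-fold. Sensor activity is set by oligomerization, phosphorylation and cleavage, which transcript levels do not show.

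The Atf4/Ddit3 branch had a median close to that of all genes, with members on both sides of equality. Atf4, the transcription factor whose translation eIF2 alpha phosphorylation favours, was at 96.3 and 91.1 FPKM, 0.946 of the control level (0.908 to 0.985). Ddit3 (CHOP), which promotes death under lasting stress, was at 10.3 and 11.9 FPKM, 1.16-fold (0.976 to 1.37), in a locus that overlaps Mars. The median gene was 1.16-fold higher by FPKM, which lies above the interval of Atf4 and within that of Ddit3. Ppp1r15a (GADD34), the phosphatase subunit that restores translation, was at 30.5 and 18.0 FPKM, 1.69-fold lower (1.57 to 1.82), the only measured member more than 1.5-fold lower, where 9.81% of all genes were. Chac1, a glutathione-degrading target of this branch, was at 0.972 and 0.332 FPKM on 54 and 13 estimated reads, 2.93-fold lower by FPKM (1.58 to 5.86) and under the filter. Asns, asparagine synthetase, was at 4.57 and 5.68 FPKM, 1.24-fold (1.05 to 1.47), and Sesn2, a stress-induced regulator of mTORC1, at 1.66 and 2.43 FPKM, 1.47-fold (1.17 to 1.84). Trib3, a pseudokinase induced by CHOP, was at 0.704 and 0.668 FPKM on 51 and 33 estimated reads, 0.949-fold (0.593 to 1.498). With all 7 members kept, low ones included, the median log2 ratio of the branch was -0.03 in place of 0.19. Of the 3 promoters of the branch that hold a CARE, Asns was higher, Chac1 lower and Trib3 indistinguishable within counting error.

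Other genes of these pathways were read from 10 lists. Of 26 other ER folding genes, 26 were measured and 26 were higher by any amount, where 67.6% of all genes were. At 2-fold or more 2 were higher, a share near the 8.59% of all genes, and 0 were lower. The median log2 ratio of the list was 0.47. The pair at 2-fold were the prolyl isomerases Fkbp10, a collagen chaperone (2.49-fold, from 35.8 to 89.1 FPKM), and Fkbp7 (2.09-fold, from 28.4 to 59.3 FPKM). Serpinh1 (Hsp47), the collagen-specific chaperone and the highest of the list, was at 364 and 474 FPKM, 1.30-fold higher. In the list of COPII coats, cargo receptors and KDEL receptors 0 of 22 were 2-fold apart, with a median of 0.30, and Tmed2, its highest gene, was 1.13-fold. The receptors that return KDEL-tailed chaperones to the ER, Kdelr1, Kdelr2 and Kdelr3, chosen after their values were seen, were 1.53-fold, 1.35-fold and 1.30-fold higher.

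The lists of translocation, other ERAD genes and other regulators had medians close to that of all genes or below it. Among 27 genes of translocation, signal peptide cleavage and N-glycan transfer, 0 were 2-fold apart. By any amount 17 were higher and 10 lower, where 67.6% and 32.4% of all measured genes were. The median log2 ratio of the 27 was 0.24. Spcs1, a signal peptidase subunit and the highest of them by the mean of both libraries, was at 167 and 156 FPKM (0.933-fold). Single genes of this list were spread, from 0.729-fold for Sec11c to 1.51-fold for Sec62, both named after their values were seen. Among 23 measured other ERAD genes the median was -0.02. By any amount 11 were higher and 12 lower, beside the same 67.6% and 32.4% of all measured genes. At 2-fold or more 1 of the 23 was lower, where 6.25% of all measured genes were. It was Sel1l3, a relative of Sel1l, 4.72-fold lower from 2.86 to 0.607 FPKM. The highest of the list, Selk, was 0.908-fold. Other sensors and regulators had a median of 0.24 over 10 genes with 0 at 2-fold, and Tmbim6, the highest, was 0.813-fold (199.9 and 163 FPKM).

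Other genes of the integrated stress response, the programme that Atf4 shares with other eIF2 alpha kinases, were mixed. Of 22 measured, 3 were 2-fold or more higher (8.59% of all genes were) and 0 lower (6.25%), with a median of 0.32. At 1.5-fold 8 were higher (19.7% of all genes were) and 3 lower (9.81%). Those at 2-fold were Vldlr, a lipoprotein receptor (3.49-fold, from 6.18 to 21.5 FPKM), Pck2, mitochondrial PEP carboxykinase (2.26-fold, from 4.93 to 11.1 FPKM), and Ddit4, an inhibitor of mTORC1 also induced by hypoxia (2.15-fold, from 21.8 to 46.8 FPKM). The other 5 past 1.5-fold higher were the transcription factor Atf5 (32.5 and 59.4 FPKM), the stress-induced Nupr1 (24.0 and 41.9 FPKM), the glycine transporter Slc6a9 (2.51 and 4.61 FPKM) and the proline synthesis enzymes Pycr1 (2.96 and 5.02 FPKM) and Aldh18a1 (7.86 and 13.95 FPKM). Past 1.5-fold lower were the transcription factor Atf3 (5.81 and 3.27 FPKM), the serine synthesis enzyme Psat1 (73.2 and 41.7 FPKM) and the amino acid transporter subunit Slc3a2 (62.7 and 35.7 FPKM). These 8 were named after their values were seen. Phgdh, the highest of the list by the mean of both libraries and the first enzyme of serine synthesis, was at 64.5 and 66.5 FPKM (1.03-fold). The 18 tRNA synthetases, many of them Atf4 targets, had a median of 0.05 with 0 at 2-fold, and Nars, the highest by the mean of both libraries, was 1.04-fold. Among 11 genes of eIF2 control the median was -0.09, and Eif2ak2 (PKR), the kinase activated by double-stranded RNA and induced by interferon, was the 1 gene at 2-fold, 2.58-fold higher from 2.38 to 6.12 FPKM. The highest, Eif2s2, was 0.984-fold.

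**Figure D4:**
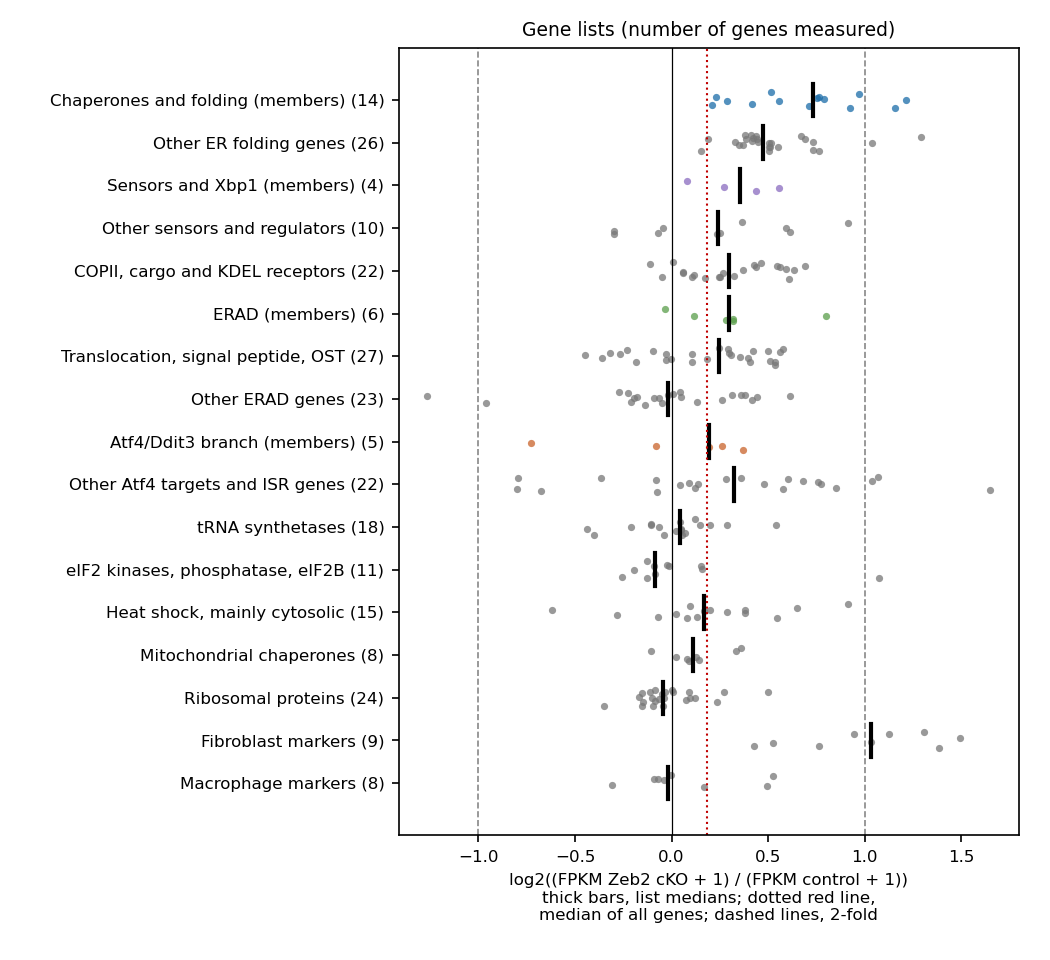
Log2 ratios of measured genes (points) and list medians (thick bars) for the 4 groups of members (coloured) and other lists (grey), with the number of genes in parentheses. The folding members have a median of 0.73, other ER folding genes 0.47 and fibroblast markers 1.03, while other ERAD genes, tRNA synthetases, eIF2 control genes, ribosomal proteins and macrophage markers lie between -0.09 and 0.05.

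Markers of other cells moved as well, and their part in the member values was not tested beyond these levels. Summed levels went from 92.9 to 297 FPKM for 7 perineurial markers (6 of 7 at 2-fold or more higher), from 136 to 222 FPKM for 7 endothelial markers (0 of 7), from 215 to 523 FPKM for 5 adipocyte markers (4 of the 4 measured) and from 41.2 to 85.5 FPKM for 5 mast cell markers (2 of 5). Macrophage markers were at 162 and 171 FPKM (0 of 8) and neuronal transcripts at 39.1 and 34.1 FPKM (0 of 5 measured). Skeletal muscle markers went from 8720.5 to 1081 FPKM, with 17 of 17 at 2-fold or more lower. Of the 7 plasma cell and B cell markers found, 6 were below the filter, with Igj, the joining chain, at 0.0513 and 0.102 FPKM. Only Sdc1, which other cells also express, was measured, at 9.76 and 24.7 FPKM. Immediate early genes, which respond to handling, had a median log2 ratio of 0.88, and hypoxia genes 0.55, of which Ero1l is one. The 24 ribosomal protein genes had a median of -0.05.

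**Figure D5:**
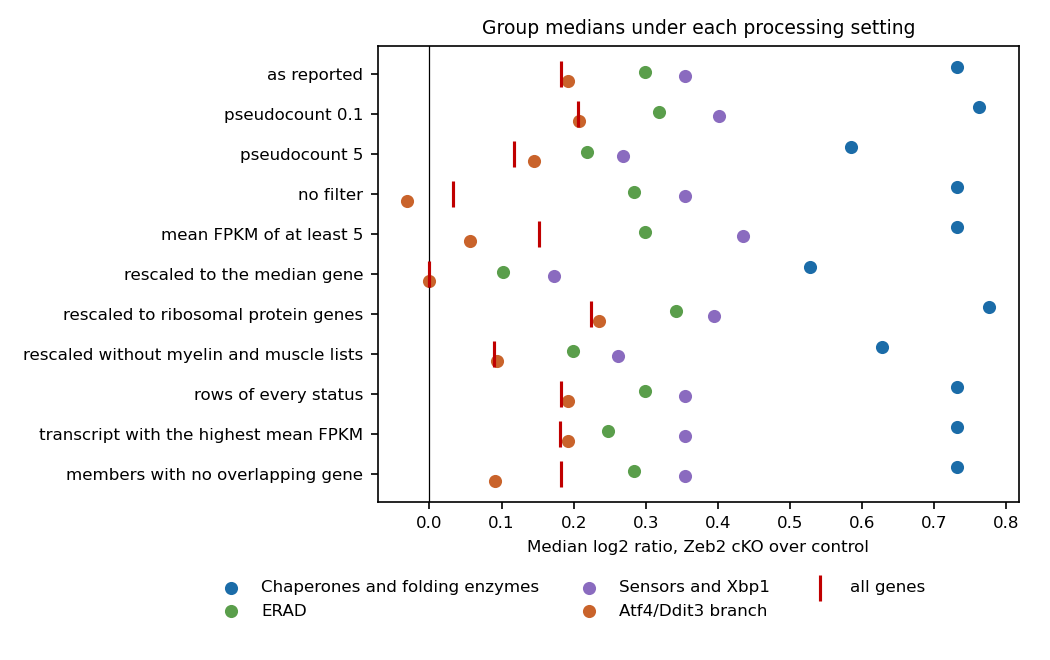
Median log2 ratio of each group of members (coloured points) and of all genes (red ticks) under the processing as reported and 10 alternatives. Folding genes keep the highest of the 4 group medians in each setting shown, from 0.53 with rescaling to the median gene to 0.78 with rescaling to ribosomal protein genes.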

How the data were processed

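Pooled sciatic nerve RNA was sequenced from TruSeq libraries made from total RNA, per the labels' protocols. The submitters' processing notes name CASAVA, TopHat, Cufflinks and Cuffdiff on mm9, without versions. The authors deposited FPKM per RefSeq transcript from Cufflinks and a coverage signal, the mean read depth per base, which is not scaled to library size, per the file headers. Each table is listed under both samples of its group and was assigned to the group. Rows with a status other than OK in either table were left out (295 of 28107), and FPKM was summed by symbol, which left 21965 genes.

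FPKM tables give no counts, so no count model was used. Reads were estimated as coverage times length divided by 52.6 bases, the median of the lowest cluster (30 to 80 bases, 480 values) in single-transcript genes above 2000 bases. The control library was 1.47 times as deep. Measured members rest on 156 to 17735 estimated reads per library. Counting intervals are exact (Clopper-Pearson, 95%) on the split of these reads. The pseudocount was 1 and the filter a mean of 1 FPKM. Python 3.11.15, pandas 2.3.3 and scipy 1.17.1 were used, and the code was tested on simulated data.

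All 32 members are named, and of each other pathway list the genes at 2-fold and the gene with the highest mean FPKM, with exceptions marked. Of 194 entries in these lists, 192 had a level. Members and lists were chosen with earlier results of these data known. The alternatives were other pseudocounts, filters, scalings, row statuses, transcript choices and fold limits, and members without overlapping genes. Promoters came from RefSeq on GRCm38.p6, and no coordinates were converted between builds.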

Additional observations from a re-analysis of the deposited data

How the results depend on the processing

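Rescaling to the median gene divided the Zeb2 cKO values by 1.16 and moved the median log2 ratio of all genes from 0.18 to -0.0012. The group medians then were 0.53 (folding), 0.10 (ERAD), 0.17 (sensors and Xbp1) and 0.33 (folding with ERAD). There 1 of 29 measured members, Dnajb9, was 2-fold or more higher, where 6.06% of all genes were. Rescaling without the myelin and muscle lists gave 0.63 for folding and 0.43 for folding with ERAD. A pseudocount of 5 gave 0.58 for folding and 1 of 29 measured members, Hspa5, at 2-fold or more higher, where 3.7% of all genes were. These shifts follow from the arithmetic of the settings. At 1.5-fold, 9 of 29 measured members were higher and 1 lower, where 19.7% and 9.81% of all genes were. The other 71 group values and counts under alternatives moved by no more than a set limit. For a group median the limit was the median half-width of its members' counting intervals, and for a difference the sum of these. For counts it was 1.5 times. The limit is not an interval of the group median and is wide for the Atf4/Ddit3 branch. With no filter the median of this branch was -0.03 in place of 0.19, and the difference 0.55 in place of 0.34, both within it. All folding genes tested lay above the median of all genes in each setting. Among all genes, rescaling to the median gene turned the split of 1109 higher and 806 lower into 782 higher and 960 lower. No paired analysis was possible because only 1 library per group was analysed here, which also means that no replicate could be left out. Depth limits Derl3, Trib3 and Chac1, which rest on 13 to 54 estimated reads.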

Other observations

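The exact ERSE also marks genes outside the set, which were collected by sequence after the data were examined. The promoter table holds it for 37 genes, of which 24 have a level in both tables under the same symbol and 16 were measured. Of these 16, 4 were 2-fold or more higher (8.59% of all measured genes were) and 0 were 2-fold or more lower (6.25%). By any amount 16 were higher, where 67.6% of all measured genes were. The median log2 ratio of the 16 was 0.56 beside 0.18 for all genes. Members among the 16 were already counted above. Leaving out the members left 8 genes with a median of 0.60. The 3 of them at 2-fold were Adcy3, an adenylyl cyclase (from 1.41 to 4.62 FPKM), Spats2l (from 5.83 to 12.9 FPKM) and Zfp57, a zinc finger protein that maintains imprints (from 5.999 to 13.2 FPKM). Xlr3b, also among the 8, was at 0.939 and 1.14 FPKM, and the counting interval of its ratio (0.796 to 1.83) spans 1. Alg12, an ER mannosyltransferase of N-glycan assembly at 3.97 and 4.84 FPKM, lies next to Creld2 on mm9 (chr15:88635673-88649748 and chr15:88650076-88657111). Alg12 is counted among the 8, and whether its match is the same stretch as that of the member Creld2 was not checked. A motif match in these genes is a description of sequence and no evidence that they respond to ER stress.

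Transcription factors of the Creb3 family, cleaved in the Golgi like Atf6, were among the other regulators. Creb3l1 (OASIS), known from collagen-secreting cells, was at 21.9 and 33.5 FPKM, 1.53-fold higher (counting interval 1.44 to 1.64), and Creb3l2, known from cartilage secretion, at 13.4 and 21.0 FPKM, 1.57-fold (1.46 to 1.68). Nfe2l1, an ER-anchored factor that induces proteasome genes, was at 30.9 and 59.1 FPKM, 1.91-fold higher (1.84 to 1.99). These genes were chosen after their values were seen.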
